A study of Mus musculus with 6 samples.

Results

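The 9 genes described here mark the path from a neural stem cell to a young neuron: Nes, Sox2, Eomes, Neurog2, Neurod1, Neurod2, Sox4, Sox11 and Igfbpl1. All but Nes and Igfbpl1 encode transcription factors. They were represented by every probe set whose platform annotation gives exactly 1 gene symbol, that symbol being one of the 9, which gave 28 of 45037 probe sets and 9 of 18193 genes. RNA of isolated dentate granule cells (given as DGCs) from mouse hippocampus was measured on 6 expression arrays, 3 from mice overexpressing HuD and 3 from control mice. HuD, the product of Elavl4, is an RNA-binding protein of neurons. Each group holds 2 mice: mouse 1 has 1 array and mouse 2 has 2 arrays. The sources used here give no strain or age of the mice, and no promoter for the transgene.

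In the adult dentate gyrus, new granule cells arise from radial glia-like stem cells at the inner edge of the granule cell layer. Stem cells carry nestin and Sox2, intermediate progenitors switch on Neurog2 and then Eomes (also called Tbr2), and neuroblasts and young neurons depend on Neurod1 and on the SoxC factors Sox4 and Sox11. Neurod1 and Neurod2 persist in mature granule cells, and Sox2 is also active in astrocytes, so these genes are not particular to newborn cells.

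Neurog2, Neurod1 and Neurod2 encode basic helix-loop-helix proteins, which bind E-boxes, short DNA sites of the form CANNTG. The RefSeq promoter table (build GRCm38.p6) held 8 of the 9 genes, all but Igfbpl1. In the 250 bases before the start that this table uses, 4 of the 8 promoters (Neurod1, Neurod2, Sox4 and Sox11) held at least 1 CANNTG, a palindromic pattern, against 66.2% of 32851 promoters. The form CATATG stood in 3 of the 8 (Neurod1, Neurod2 and Sox11), against 3.46% of all. It was among several patterns searched, and the counts were not tested. Of the others, CAGCTG stood in 2 of the 8 (13% of all) and CAGATG in 1 (14.4%). TATATA stood in 3 (5.25%), AACAAT in 1 (9.42%) and ACAAAG in 1 (16.5%). The 3 promoters with CATATG are printed first, and those of Sox2 and Neurog2, which hold no CANNTG in this window, follow for comparison. Capitals mark each CANNTG, and a match describes letters, not a bound site. The table's Neurog2 start lies inside the RefSeq gene span, chr3:127632733-127635636, so the Neurog2 window is within that span and not before it.
Neurod1, chr2:79456637-79456886, minus strand: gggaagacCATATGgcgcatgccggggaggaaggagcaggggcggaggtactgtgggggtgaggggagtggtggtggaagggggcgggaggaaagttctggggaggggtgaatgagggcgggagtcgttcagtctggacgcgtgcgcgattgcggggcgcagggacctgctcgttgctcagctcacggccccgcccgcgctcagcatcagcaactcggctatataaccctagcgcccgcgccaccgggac
Neurod2, chr11:98329646-98329895, minus strand: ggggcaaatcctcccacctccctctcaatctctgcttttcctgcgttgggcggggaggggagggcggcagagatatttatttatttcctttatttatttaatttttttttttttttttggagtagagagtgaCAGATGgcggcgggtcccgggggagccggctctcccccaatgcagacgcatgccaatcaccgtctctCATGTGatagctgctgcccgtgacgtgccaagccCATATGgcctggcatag
Sox11, chr12:27342719-27342968, minus strand: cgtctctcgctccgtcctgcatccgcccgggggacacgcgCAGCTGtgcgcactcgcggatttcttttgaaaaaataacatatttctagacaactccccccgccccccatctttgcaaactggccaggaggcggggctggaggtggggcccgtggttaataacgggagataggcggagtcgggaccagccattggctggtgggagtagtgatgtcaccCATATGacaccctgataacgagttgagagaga
Sox2, chr3:34649745-34649994, plus strand: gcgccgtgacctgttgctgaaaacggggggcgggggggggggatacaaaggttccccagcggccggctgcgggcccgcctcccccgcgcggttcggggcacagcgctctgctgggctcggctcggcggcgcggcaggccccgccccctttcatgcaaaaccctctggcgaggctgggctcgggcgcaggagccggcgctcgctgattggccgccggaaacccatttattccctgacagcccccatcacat
Neurog2, chr3:127632886-127633135, plus strand: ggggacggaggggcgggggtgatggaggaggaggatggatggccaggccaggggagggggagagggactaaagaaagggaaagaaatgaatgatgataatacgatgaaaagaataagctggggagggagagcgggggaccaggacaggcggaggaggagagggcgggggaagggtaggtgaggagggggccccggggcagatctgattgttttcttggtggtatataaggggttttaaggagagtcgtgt

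Some features of the arrays bear on every value below. The term re-LCM, left unexplained by the labels, stands in the titles of 3 arrays: transgenic mouse 1, transgenic mouse 2 array 1 and control mouse 1. The title of transgenic mouse 2 array 1 adds the word block, also unexplained. The descriptions place 2 control arrays in mouse 2, while the titles number these arrays control 1 and control 2. Values are linear intensities that the authors scaled to a 2% trimmed mean of 150.001 on each array, with a median of 32.3 to 36.8 over probe sets. Intensities under 10.1, the pooled 25th percentile, were set to that floor before log2 was taken. All 14 listed markers of mature granule cells passed the filter on dim probe sets. So did 13 of 14 listed astrocyte markers and 12 of 16 listed oligodendrocyte markers. Prox1, the factor that sets granule cell identity, read 604, 591 and 497 on the transgenic arrays and 618, 599 and 651 on the control arrays. The brightest Elavl4 probe set read 79.4, 93.3 and 60.1 on the transgenic arrays, against 122, 92.8 and 63.7 on the control arrays. Its log2 difference was -0.33 (95% interval -1.03 to 0.37 in the fit over genes). The other Elavl4 probe sets also passed the filter and gave -0.15 and -0.73, with overlap between groups. No Elavl4 probe set was thus higher in the transgenic mice. Whether any of them matches the transgene's transcript was not examined, so these values do not check the labels. In such bulk samples, fewer cells of a type and less RNA per cell cannot be told apart.

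The study compared transgenic with control mice. Of the 9 genes, 8 had lower means in the transgenic mice at their brightest probe set, and Neurod2 had a higher one. The 8 include Igfbpl1, whose probe set passed the filter on dim probe sets narrowly and through its control values. None of the 9 passed the limma test over 14678 genes (adjusted p = 0.999 for each, n = 2 mice per group), and 0% of these genes passed in either direction (0 higher and 0 lower). Means below those of the control mice were found for 49.5% of all genes. The median log2 difference was -0.26 over the 9 genes and 0.0026 over all 14678. With single mice or arrays left out, the median over the 9 genes ran from -0.49 without transgenic mouse 2 to -0.19 without control mouse 1. All differences below are log2 of transgenic over control, with the mean of a mouse's arrays as its value. Intensities are listed for mouse 1, mouse 2 array 1 and mouse 2 array 2 of each group.

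Sox2, the stem cell factor, read 81.9, 126 and 158 on the transgenic arrays, against 279, 158 and 182 on the control arrays. The highest transgenic array, 157.6, lay just under the lowest control array, 158.0, so the groups barely separated, with transgenic mouse 1 lowest and control mouse 1 highest. The difference was -1.02 (SE 0.38, 95% interval -2.00 to -0.03), a ratio of 0.494. These values are from the limma fit over genes, where Sox2 had an unadjusted p of 0.0455 and an adjusted p of 0.999. In that fit 2.55% of all genes were lower with an unadjusted p under 0.05. The limma fit over all probe sets gave the same difference with a wider interval, -2.56 to 0.53 (SE 0.46). There the unadjusted p was 0.122 and the adjusted p 0.882, so whether the interval left out 0 depended on the fit. Without transgenic mouse 1 the difference was -0.63, and without control mouse 1 it was -0.66. Sox2 has 1 probe set here, so no other probe set bears on this value.

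Nes encodes nestin, the intermediate filament of neural stem cells. Its brightest probe set read 45.3, 75.6 and 55.8 on the transgenic arrays, against 68.2, 65.8 and 54.5 on the control arrays. The highest and the lowest value were both transgenic, and the groups overlapped (difference -0.24, SE 0.23, interval -0.85 to 0.38). Without transgenic mouse 1 the direction turned (0.024), and without transgenic mouse 2 the difference was -0.49. The other 2 Nes probe sets did not pass the filter, with 2 and 4 of their 6 values at or under the floor.

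Eomes, the T-box factor of intermediate progenitors, read 29.6, 55.2 and 64.6 on the transgenic arrays, against 108, 66.6 and 42.0 on the control arrays. Again transgenic mouse 1 was lowest and control mouse 1 highest, while both arrays of transgenic mouse 2 lay between the 2 arrays of control mouse 2. The difference was -0.85 (SE 0.50, interval -2.15 to 0.45), with -0.34 without transgenic mouse 1 and -0.33 without control mouse 1, but -1.36 without transgenic mouse 2 and -1.37 without control mouse 2. The second Eomes probe set lay at or under the floor on all 6 arrays.

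Neurog2, the proneural factor that commits progenitors to a glutamatergic fate, read 19.4, 42.5 and 45.0 on the transgenic arrays, against 62.1, 42.6 and 57.3 on the control arrays. Transgenic mouse 1 stood apart from the other 5 arrays, which overlapped. The difference was -0.93 (SE 0.42, interval -2.04 to 0.18), a ratio of 0.526. It was -0.34 without transgenic mouse 1 and -0.76 without control mouse 1, but -1.51 without transgenic mouse 2 and -1.09 without control mouse 2. With the floor raised to the median intensity of 34.6 it was -0.51.

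Neurod1, which new granule neurons need to survive and mature, read 1135, 1281 and 1385 on the transgenic arrays, against 1510, 1280 and 1256 on the control arrays. Its groups overlapped widely, with a difference of -0.17 (SE 0.19, interval -0.66 to 0.32). It was -0.055 without transgenic mouse 1 and -0.045 without control mouse 1, but -0.29 without transgenic mouse 2 and -0.30 without control mouse 2. A second probe set for the same source sequence gave a like value, -0.19, and its lowest array was control mouse 2 array 1.

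Neurod2, a relative that is active in maturing excitatory neurons, ran the other way. It read 624, 600 and 467 on the transgenic arrays, against 371, 483 and 563 on the control arrays, with control mouse 1 lowest and transgenic mouse 1 highest. The difference was 0.39 (SE 0.23, interval -0.22 to 1.00), with 0.14 without control mouse 1 and 0.63 without control mouse 2. A second probe set above the filter gave 0.15 with overlap, and the third lay at or under the floor on 5 of 6 arrays.

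**Figure D1:**
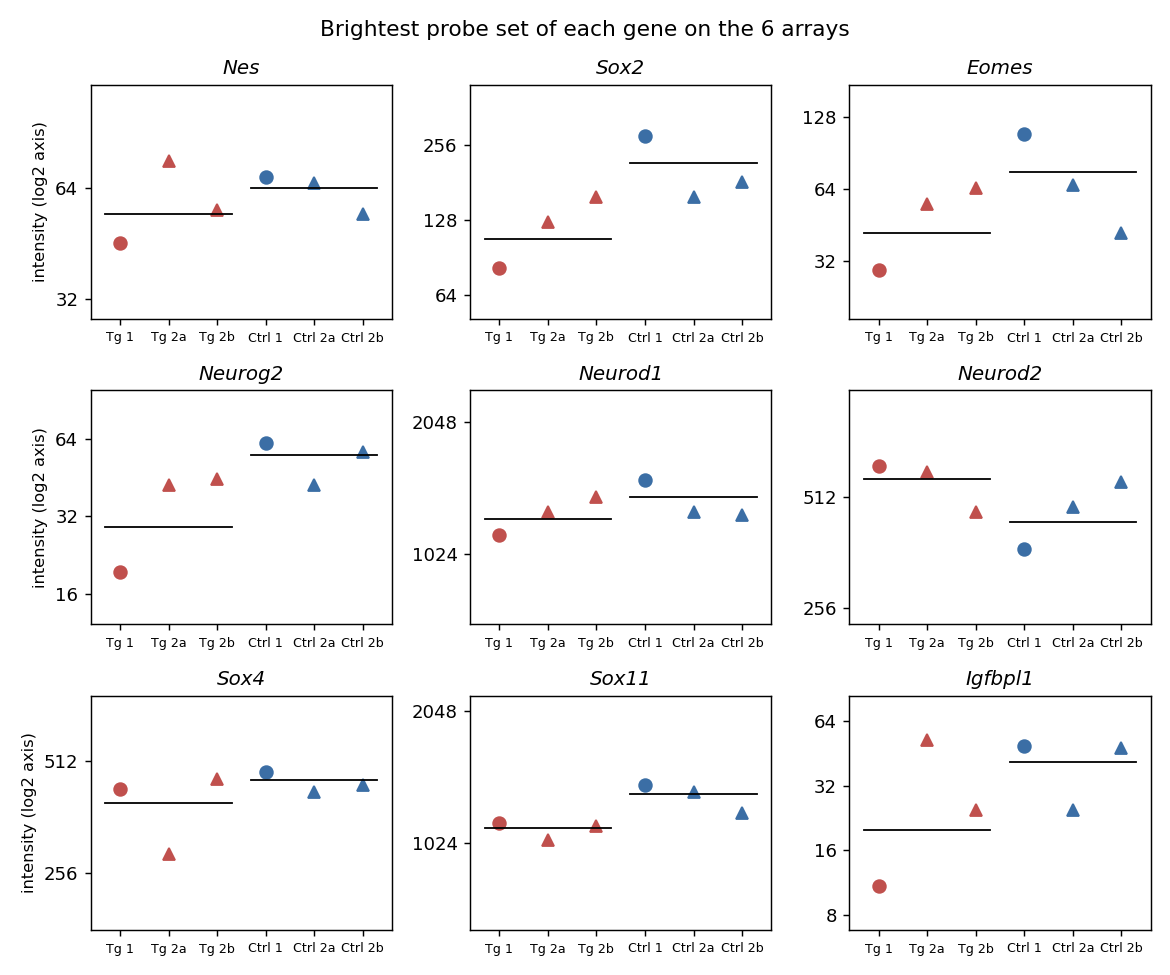
Intensity (log2 axis) of the brightest probe set of each of the 9 genes on the 6 arrays. Red points are transgenic (Tg) and blue points control (Ctrl) arrays, circles mouse 1 and triangles the 2 arrays of mouse 2 (a and b), and black lines the group mean over mice on the log2 scale. For Sox2, Eomes, Neurog2 and Neurod1, transgenic mouse 1 was the lowest and control mouse 1 the highest of the 6 arrays.

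The SoxC genes Sox11 and Sox4 had small differences at their brightest probe sets. Sox11, which drives neuronal gene expression in young neurons, read 1137, 1038 and 1117 on the transgenic arrays, against 1384, 1336 and 1195 on the control arrays at its brightest probe set. Every transgenic array lay below every control array, and mice of a group lay close together. The difference was small, -0.26 (SE 0.16, interval -0.67 to 0.16), and ran from -0.32 to -0.19 over the leave-outs of single mice and arrays. Of all genes tested, 4.22% were separated in this direction, as were 2 of the 9, Sox2 and Sox11.

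Sox11 has 6 probe sets, all of which passed the filter and had lower transgenic means, from -0.55 to -0.07. The dimmest of them was also separate between groups. It read 44.9, 50.6 and 41.7 on the transgenic arrays, against 61.3, 80.1 and 64.7 on the control arrays, a difference of -0.55 (SE 0.11, interval -0.92 to -0.18). Its unadjusted p was 0.0198 and its adjusted p over 45037 probe sets 0.630 (limma). The remaining 4 probe sets overlapped between groups. Probe sets of a gene share the RNA of the same arrays, so their number is not a number of replicates.

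Sox4, a close relative of Sox11, read 430, 288 and 457 on the transgenic arrays, against 477, 422 and 440 on the control arrays at its brightest probe set. Only transgenic mouse 2 array 1 stood apart, while the second array of that mouse lay within the control range. The difference was -0.20 (SE 0.18, interval -0.66 to 0.26), and over single mice and arrays left out it ran from -0.37 without transgenic mouse 2 array 2 to -0.03 without transgenic mouse 2 array 1. Its 8 probe sets disagreed: 4 had lower means, 3 higher means and 1 lay at the floor on all arrays. Among the 4 that passed the filter the differences were -0.20, 0.07, -0.62 and -0.15, in order of brightness.

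Igfbpl1 encodes a secreted protein of the insulin-like growth factor binding family that is found in young neurons. It read 10.9, 52.3 and 24.7 on the transgenic arrays, against 49.1, 24.7 and 47.8 on the control arrays. The 2 arrays of transgenic mouse 2 differed by 1.08 log2 units and those of control mouse 2 by -0.96 (array 1 minus array 2), so arrays of the same mouse spread as far as the groups did. The difference was -1.05 (SE 0.60, interval -2.63 to 0.53), with -0.22 when the floor was the median intensity. It was -0.19 without transgenic mouse 1 and -1.91 without transgenic mouse 2, the ends of its range over single mice and arrays left out. The second Igfbpl1 probe set, just under the filter and annotated to the same source sequence, read 32.5, 26.3 and 22.7 on the transgenic arrays, against 13.8, 66.4 and 34.3 on the control arrays, and gave 0.13. Its order of arrays was different: control mouse 1, high at the first, was the lowest at the second.

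**Figure D2:**
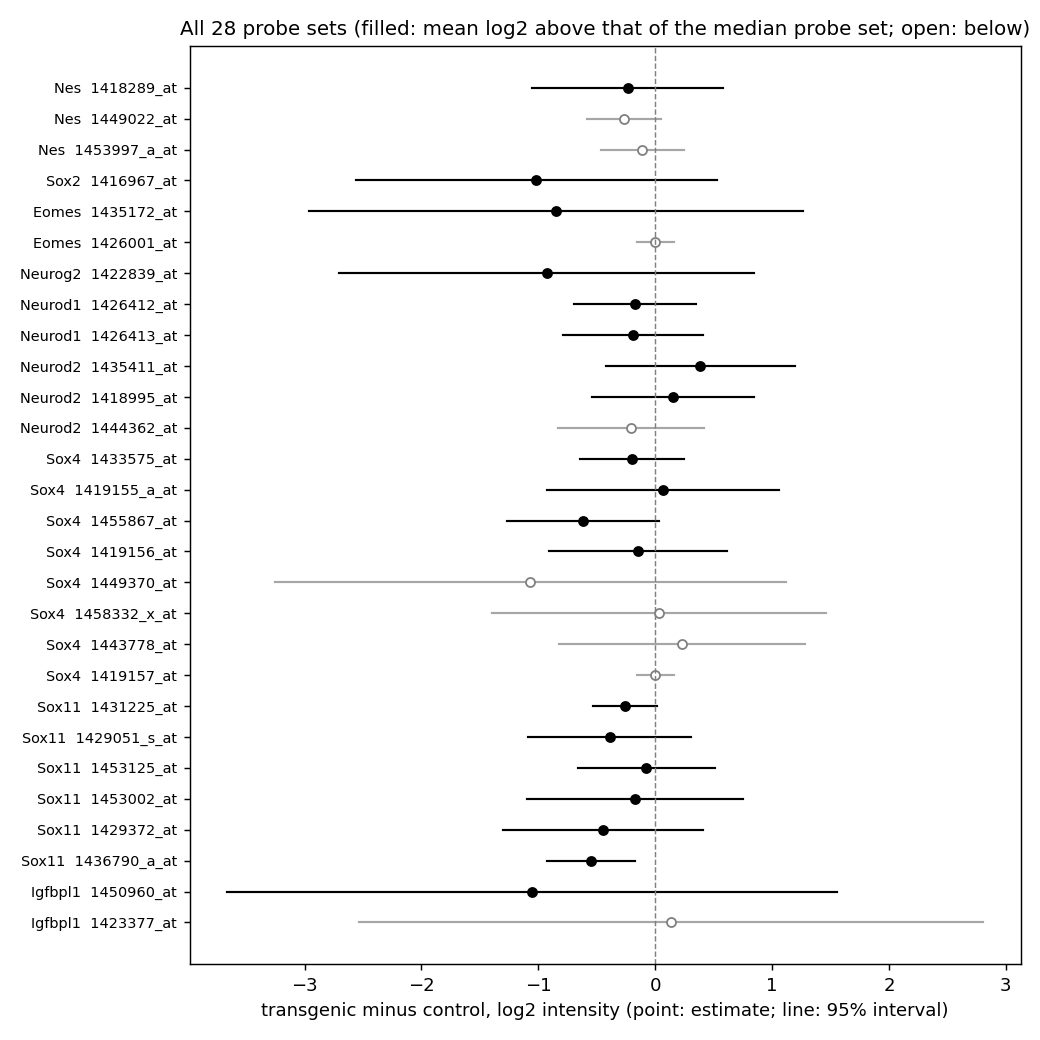
Log2 difference, transgenic minus control, of all 28 probe sets with the 95% interval of the limma fit over 45037 probe sets (2 mice per group). Filled points have a mean log2 intensity above that of the median probe set and open points do not. Only the interval of the dimmest Sox11 probe set lies wholly below 0, and 2 probe sets at the floor on all arrays sit at 0.

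Over all 28 probe sets, 20 had lower and 6 higher transgenic means, and 2 were at the floor on every array. The shares over all 45037 probe sets were 49.9% lower and 43.8% higher. With limma 0 of the 28 passed, as did 0% of all probe sets in either direction, and 1 of the 28 had an unadjusted p under 0.05, lower, against 3.87% of all that were lower at that level. The arrays of the groups were separate for 3 of the 28, all lower, against 4.01% of all probe sets.

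For 8 of the 9 genes, all but Sox4, the difference was larger in size between the mice numbered 1 than between those numbered 2. The mice numbered 1 have 1 array each, and a single array varies more than a mean of 2. The share of all genes with this order was not computed, so the count does not describe a trait of these genes. Between transgenic mouse 1 and control mouse 1 the differences were -1.77 for Sox2, -1.87 for Eomes, -1.68 for Neurog2, -2.17 for Igfbpl1 and -0.59 for Nes. Between the mice numbered 2, with 2 arrays each, they were -0.27 for Sox2, 0.18 for Eomes, -0.18 for Neurog2, 0.066 for Igfbpl1 and 0.12 for Nes. Sox11 and Sox4 had like values in both comparisons: Sox11 had -0.28 between the mice numbered 1 and -0.23 between the mice numbered 2, and Sox4 had -0.15 and -0.25. The median over the 9 genes was 0.022 within the mice numbered 2. These pairs share only a number, and the contrast between them was not tested.

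**Figure D3:**
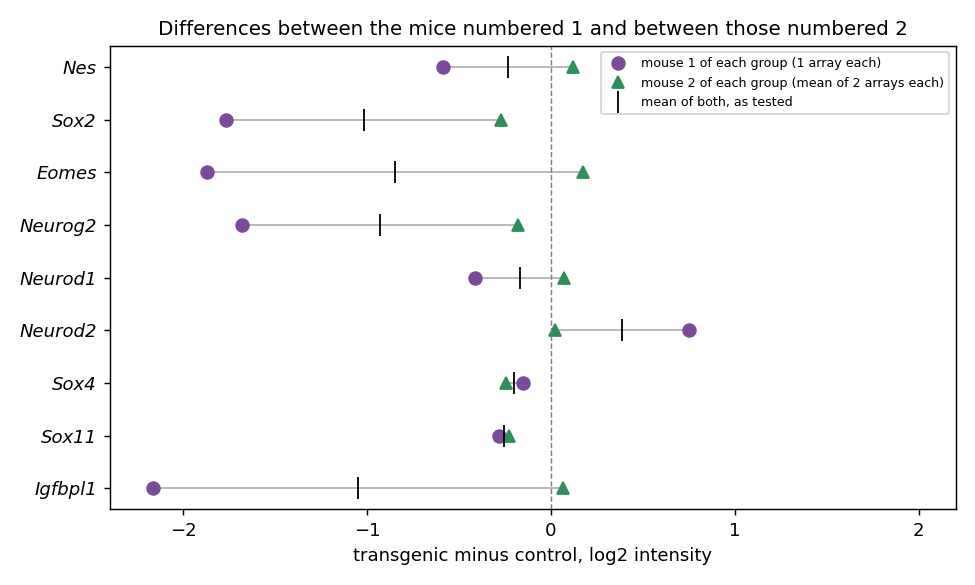
Log2 difference, transgenic minus control, between the mice numbered 1 (circles, 1 array each), between the mice numbered 2 (triangles, mean of 2 arrays each) and the mean of both that was tested (black bars), at the brightest probe set of each gene. Sox4 and Sox11 nearly coincide, while Sox2, Eomes, Neurog2 and Igfbpl1 lie between -2.17 and -1.68 for the mice numbered 1 and between -0.27 and 0.18 for the mice numbered 2.

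Transgenic mouse 1 was the lowest array for 6 of the 9 genes, as for 17.1% of all genes tested, and control mouse 1 was the highest for 6, as for 14.0% of all. Both held at once for 4 of the 9, Sox2, Eomes, Neurog2 and Neurod1, and for 2.91% of all genes tested. Both arrays carry the re-LCM tag. Within the 3 tagged arrays the differences were -1.46 for Sox2, -1.42 for Eomes, -1.11 for Neurog2, -0.35 for Sox11 and 0.72 for Neurod2. Within the 3 untagged arrays, all from the mice numbered 2, they were -0.10 for Sox2, 0.29 for Eomes, -0.14 for Neurog2, -0.18 for Sox11 and -0.16 for Neurod2. With the tag as a term over 6 arrays, Sox2 stood at -0.78, Eomes at -0.57 and Neurog2 at -0.62, and none passed (limma, adjusted p = 1.00 for each). In the control group mouse number and tag coincide and cannot be told apart. In the transgenic group only mouse 2 has both a tagged and an untagged array, and the tagged title also holds the word block. Tagged minus untagged in that mouse was -0.33 for Sox2, -0.23 for Eomes, -0.08 for Neurog2, -0.11 for Sox11 and 0.36 for Neurod2. Over both groups the parts of mouse and tag were not tested apart.

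The wider pathway was described with lists of its other genes. Of 19 radial glia-like stem cell genes 14 were tested, 11 with lower and 3 with higher transgenic means (median -0.29), and 0 passed over all genes. The genes named in this paragraph are those of smallest p in the list. Prom1, a membrane protein of stem cells, was separate between groups (-0.68, SE 0.25). It read 50.2, 48.0 and 48.0 on the transgenic arrays, against 97.4, 59.6 and 68.4 on the control arrays. Prom1 was the only separate gene of the 14, and 4.22% of all genes tested were separated in this direction. Fabp7, the brain lipid-binding protein of radial glia, read 85.0, 301 and 195 on the transgenic arrays, against 411, 215 and 264 on the control arrays (-1.12, SE 0.58). Hopx, a marker of quiescent stem cells, differed by -0.44 (SE 0.16) with overlap, and Sox1 by -0.93 (SE 0.71).

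Of 39 further genes of immature neurons 31 were tested, 22 with lower and 9 with higher means (median -0.08), and 0 passed. Those of smallest p were Elavl2, a neuronal relative of HuD (-0.83, SE 0.31), Neurod6, a relative of Neurod1 (-0.85, SE 0.39), Insm1, a zinc finger factor of progenitors (-1.02, SE 0.48), and Marcksl1, an actin regulator (-0.30, SE 0.17). The arrays of the groups were separate for 1 gene of the list, Btg2, an antiproliferative gene, and it was higher: it read 179, 194 and 198 on the transgenic arrays, against 169, 148 and 170 on the control arrays (0.20, SE 0.16). Of all genes tested, 3.86% were separated in this direction, and Btg2 was named after its values were seen. Insm1 read 20.2, 52.5 and 47.8 on the transgenic arrays, against 76.1, 80.2 and 37.2 on the control arrays. Cell cycle genes split, with 6 of 11 tested higher and 5 lower (median 0.03). Top2a, a topoisomerase of dividing cells, had -0.79 (SE 0.46), Rrm2 -0.49, Cdk4 -0.31 and Mcm2 0.19, while 9 others, Mki67 among them, did not pass the filter. The list of partners and antagonists of basic helix-loop-helix factors also holds Rest, a repressor of neuronal genes that is neither. Of this list 8 of 11 genes were tested and all 8 had lower means (median -0.12). Rest stood at -0.37, the Notch effector Hes5 at -0.56, Id4 at -0.30 and Id3 at -0.14. None of these differences passed (limma, adjusted p = 0.999).

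Markers of other cells also differed between these arrays. The mean level of the 9 genes, each centred on its mean over the 6 arrays, was -0.53, 0.03 and -0.0082 on the transgenic arrays, against 0.38, 0.02 and 0.11 on the control arrays. The 12 tested oligodendrocyte markers stood at -0.47 on transgenic mouse 1 and at 0.76 on control mouse 1, with the others between -0.24 and 0.03. The astrocyte markers stood at -0.11 and 0.36 on these arrays, microglia markers at -0.30 and 0.30, and interneuron markers at -0.35 and 0.44. Vascular markers did not follow this order at the low end: they stood at 0.08 on transgenic mouse 1 and 0.39 on control mouse 1, and were lowest on transgenic mouse 2 array 1 (-0.31). Pyramidal cell markers stood at 0.07 and 0.16 and were lowest on control mouse 2 array 2 (-0.19). Among the lists of the wider pathway, the radial glia-like genes stood at -0.30 on transgenic mouse 1 and 0.36 on control mouse 1, the immature neuron genes at -0.18 and 0.14, and the basic helix-loop-helix partners at -0.18 and 0.23, in each case the lowest and the highest array. Cell cycle genes stood at -0.12 and 0.09 and had both extremes on control mouse 2, from -0.30 to 0.27. Mature granule cell markers stood at -0.03 and -0.02 there and within -0.12 to 0.10 on all arrays, with 11 of 14 lower, 3 higher and a median difference of -0.09. Some tested genes are shared between lists, so the lists are not independent of each other. Id4 and Hes5 belong to the radial glia-like and the helix-loop-helix partner lists. Gfap belongs to the radial glia-like and astrocyte lists, and Neurod6 to the immature neuron and pyramidal lists. The part of the other cells in the values of the 9 genes was not tested.

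By list, oligodendrocyte markers had lower means in 11 of 12 (median -0.57), and their summed intensity was 5802 to 8522 on the transgenic and 5050 to 12676 on the control arrays. Their leading genes by p were Sox10 (-1.19), Mag (-0.65), Opalin (-0.44) and Olig1 (-0.86), while Mog, Olig2 and Pdgfra did not pass the filter. Astrocyte markers had lower means in 10 of 13 (median -0.21), with sums of 16281 to 18692 on transgenic and 16819 to 22927 on control arrays. Those of smallest p were S100b (-0.87), Clu (-0.47), Slc1a3 (-0.55) and Gfap (-0.34).
Microglia markers were lower in 7 of 7 (median -0.33), with sums of 3025 to 3752 on transgenic and 3209 to 4564 on control arrays, and vascular markers in 5 of 7 (median -0.28), with sums of 496 to 687 and of 588 to 803. Cldn5 had the smallest p of the vascular markers (-1.15), and 2 vascular markers were higher. Interneuron markers were lower in 7 of 9 (median -0.38), with sums of 3425 to 3771 on transgenic and 2975 to 3622 on control arrays. Sst had the smallest p of these (-1.47), with 1 array at or under the floor. The 2 higher interneuron markers were the bright Cck (0.35) and Gad1 (0.11). Pyramidal cell markers were lower in 6 of 9 (median -0.05), with sums of 5414 to 5735 on transgenic and 5088 to 5968 on control arrays. Among the cell type markers, the groups were separate for Sox10, Cldn5 and Sst, lower, and for Gad1 and the pyramidal marker Bok, higher. Of all genes tested, 4.22% were separate and lower and 3.86% separate and higher. Pecam1, a vascular marker, and Dlx1, an interneuron marker, were at or under the floor on all 6 arrays, and 0 markers of any list passed.

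**Figure D4:**
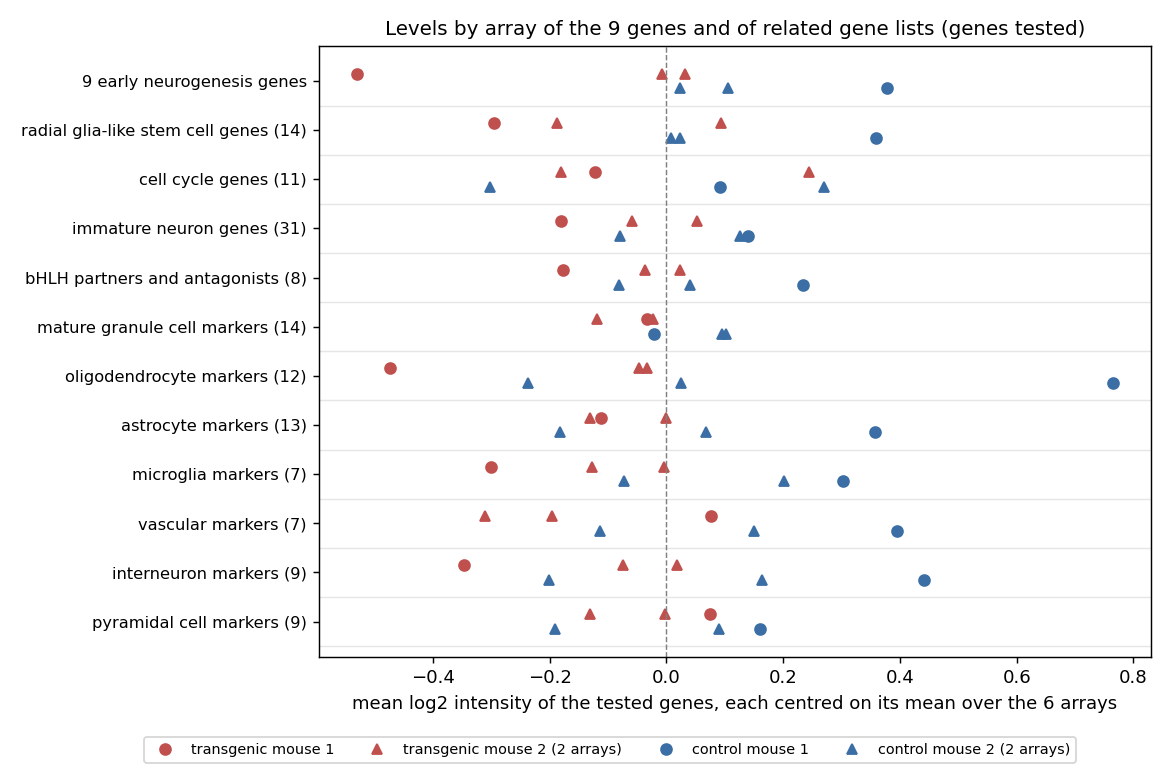
Mean log2 intensity by array of the 9 genes and of 11 related gene lists, each tested gene centred on its mean over the 6 arrays (number of genes tested in brackets). Red symbols above each line are transgenic and blue symbols below it control arrays, with circles for mouse 1 and triangles for mouse 2. The 9 genes, the radial glia-like, immature neuron and helix-loop-helix partner lists and the oligodendrocyte, microglia and interneuron markers are lowest on transgenic mouse 1 and highest on control mouse 1. Astrocyte, vascular, pyramidal and cell cycle lists have their lowest array elsewhere, while mature granule cell markers stay within -0.12 to 0.10.

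Likeness of pattern was measured as the mean absolute difference between centred log2 values over the 6 arrays, which describes 4 mice and carries no test. Nearest to Sox2 were Igf1 (0.12 log2 units), Olig1 (0.13) and Adcy7 (0.15). For Eomes they were Gpc5 (0.13), Tada3 (0.15) and Fa2h (0.15), and for Neurog2 they were Neurod6 (0.14), Acadl (0.15) and Serinc5 (0.15). Nearest to Igfbpl1 were B3gat3 (0.19), Mlxipl (0.21) and Fabp7 (0.24). Among 11138 named genes some lie near any pattern of 6 values.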

How the data were processed

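The authors deposited linear intensities per probe set on 6 arrays, scaled to 1 trimmed mean per array, as the values themselves show. Which program summarised the probes, and how background was corrected, is not given in the sources used here. Scanner files were not analysed here. Of 45101 probe sets 64 controls were left out. Of the rest 34945 had 1 gene symbol in the platform annotation, 932 had several and 9160 had none. Intensities were raised to a floor at the pooled 25th percentile and log2 was taken. Arrays of a mouse were averaged. The test between 2 transgenic and 2 control mice used limma 3.58.1 (lmFit, eBayes; R 4.3.3), two-sided, and p-values were adjusted by Benjamini-Hochberg (threshold 0.05). One fit ran over 14678 genes, each with its brightest probe set among those whose mean log2 exceeded that of the median probe set (unnamed probe sets included). A further fit ran over all 45037 probe sets. Precision is limited by the number of mice.

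The 9 genes and all lists were chosen with earlier results of these data known. Named were the 9 genes, up to 4 genes of smallest p per list and the 3 nearest genes of a member, of which the text prints some. Mki67, Gad1 and the markers under the filter or floor were chosen for naming after seeing their values. Simulated data with known changes served to test the fit. Same-numbered mice were checked for pairing: deviations of mouse 1 from mouse 2 correlated at 0.03 across genes between the groups, so the numbers were not taken as pairs.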

Additional observations from a re-analysis of the deposited data

How the results depend on the processing

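Over 19 other settings of the processing and the samples, all of the 9 genes but Nes kept the direction of their difference wherever they were tested. The size of the differences changed with the setting. None of the 9 genes passed in any of these settings (smallest adjusted p = 0.418, limma). With the arrays of the mice numbered 2 only, a setting chosen after seeing the data, the direction turned for Nes (0.12), Eomes (0.18), Neurod1 (0.071) and Igfbpl1 (0.066), and the median over the 9 genes moved to 0.022. By its construction that setting leaves out the mice numbered 1. Over single mice and arrays left out, Nes ran from -0.49 to 0.024. With limma, 0 genes passed (632 with an unadjusted p under 0.05), but 1 passed with a variance trend and robust variance. Of the probe sets 0 passed (2923 with an unadjusted p under 0.05), but 6 did with the floor at the median intensity, 18 with 6 arrays as samples and 83 when the mouse entered as a random block. In these settings 0 of the 28 probe sets passed, and the cause was not tested. The random block put the correlation between a mouse's arrays at -0.54. With it the differences were -0.55 for Sox2, -0.015 for Nes, -0.21 for Eomes, -0.46 for Neurog2 and -0.02 for Neurod1. They were 0.16 for Neurod2, -0.23 for Sox4, -0.24 for Sox11 and -0.35 for Igfbpl1. With the mouse number as a replicate block 0 genes passed (702 with an unadjusted p under 0.05), and no call changed. With a filter at the 75th percentile Nes, Eomes, Neurog2 and Igfbpl1 were not tested. Signal near the floor limits Igfbpl1, Neurog2 and the dimmer probe sets of Sox4 and Nes.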
